A study of Homo sapiens with 2 samples.

Results

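The 9 genes described here encode ATF4, CHOP (gene symbol DDIT3) and 7 factors that pair with them or act beside them, namely ATF3, ATF5, CEBPB, CEBPG, CEBPD, JUN and FOS. All belong to the bZIP class of transcription factors. They were chosen by gene symbol, with earlier results of these data known. Each symbol was found once in both gene tables, so that 9 of 25277 rows are members. The samples were wild-type (WT) and PERK-KO HEK293 cells, an established human embryonic kidney line at passage 15-20, after 12 h in OXPHOS medium. This medium held galactose at 10 mM and pyruvate at 1 mM and no glucose, so that cells rely on mitochondrial respiration for ATP. PERK (gene EIF2AK3) is the eIF2alpha kinase of the endoplasmic reticulum (ER). Its gene was disrupted with CRISPR/Cas9, and the methods describe single-cell seeding or drug selection for the edited lines without saying whether the PERK-KO cells sequenced were 1 clone. Both groups received the same medium. The comparison asks how the mRNA levels of these factors stand in cells without PERK when respiration is in demand. There was 1 sample per genotype, so no test of the genotype was possible. Every interval below covers error within a sample only. This error is called counting error here, though for some genes, such as ATF4, it can be wider than counts alone would give.

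A bZIP factor binds DNA as a dimer through a basic region followed by a leucine zipper, and the partner helps decide which DNA element is read. When PERK or a related kinase phosphorylates eIF2alpha, most translation slows while ATF4 is translated more, because short upstream reading frames in its mRNA are then bypassed. ATF4 pairs with C/EBP factors on composite C/EBP-ATF elements and induces genes of amino acid supply as well as ATF3, DDIT3 and other bZIP genes. CHOP in turn pairs with C/EBP factors, and JUN and FOS form AP-1, the immediate early pair of growth factor and stress signalling. An mRNA level does not report the amount or the activity of the protein.

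Levels are FPKM, the number of fragments per length of transcript and per depth of library, with the lower and upper confidence limits of Cufflinks in parentheses. In 1091 rows the limits gave whole fragment numbers (within 0.01) in both samples, and from these the depth of PERK-KO was 87.6% of that of WT. A gene was called where its FPKM reached 1 in at least 1 sample, its ratio passed 1.5-fold and its confidence intervals lay apart. EIF2AK3, the edited gene at chr2:88856259-88927094, stood at 5.61 FPKM (5.11 to 6.12) in WT and 3.89 FPKM (3.44 to 4.34) in PERK-KO. Its ratio was 0.693 with intervals apart, short of the 1.5-fold limit. A CRISPR edit need not lower the mRNA, so this value does not by itself check the genotype. Among 10 HEK293 markers, the keratins KRT8 (640.5 and 437 FPKM in WT and PERK-KO) and KRT18 (238 and 202 FPKM) and the filament gene VIM (418 and 378 FPKM) were abundant, while PAX2, a renal developmental gene, was under 1 FPKM in both. IRS4 was 0.121 FPKM in WT and 27.1 FPKM in PERK-KO, NEFM was 0.662 FPKM in WT and 5.21 FPKM in PERK-KO and LHX1 was 4.65 FPKM in WT and 2.88 FPKM in PERK-KO, and all 3 were called. The samples therefore differed in marker genes of the line itself, and the part of this difference in the results below was not tested. All 10 markers of other cell types were under 2 FPKM in both samples, with sums of 7.48 FPKM in WT and 6.80 FPKM in PERK-KO, and CD3E, ALB and UCP1 were listed at 0.

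The DNA before the start sites of JUN and ATF3 is shown first, since these were the 2 members called, followed by the short elements found before the other starts. RefSeq windows from 250 bases before to 50 bases after a start were searched on both strands for the C/EBP-ATF core TGATGNAA, the cAMP response element TGACGTCA, the AP-1 element TGANTCA, the TATA element TATAAA, the ER stress response element and the serum response element. No pair of these matches overlapped in a member. The table held 15 windows for 8 of the 9 members and none for CEBPD. Sequences are from RefSeq (GRCh38.p14), and their positions on GRCh37, the build of the gene tables, come from exact matches. Each is written 5′ to 3′ on the strand of its gene, with the elements in capitals. For JUN and ATF3 the stretch ends where the locus of the gene in the tables begins, which gave chr1:59249786.0-59249969.0 on the minus strand and chr1:212738499.0-212738675.0 on the plus strand.
JUN: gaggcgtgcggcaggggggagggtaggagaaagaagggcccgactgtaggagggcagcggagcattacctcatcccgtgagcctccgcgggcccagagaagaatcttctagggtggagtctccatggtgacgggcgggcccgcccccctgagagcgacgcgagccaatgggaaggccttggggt
ATF3: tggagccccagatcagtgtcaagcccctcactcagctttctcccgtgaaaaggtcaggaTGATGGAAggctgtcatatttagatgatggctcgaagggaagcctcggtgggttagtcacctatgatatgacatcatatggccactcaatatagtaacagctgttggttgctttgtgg

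The other sites are shown in 30 bases each, to set the element of each factor beside those of its partners. They lie at chr19:33864966-33864995 (CEBPG), chr12:57914518-57914547 (DDIT3), chr19:50431964-50431993 (ATF5), chr22:39916525-39916554 (ATF4), chr20:48807326-48807355 (CEBPB) and chr14:75745486-75745515 (FOS), with DDIT3 on the minus strand and the others on the plus strand. The elements of ATF5 and ATF4 overlap an annotated exon of their own gene in GENCODE 44 on GRCh37, and the other 4 overlap none.
CEBPG: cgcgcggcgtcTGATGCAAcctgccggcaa
DDIT3: gcgcgcgcaTGACTCAcccacctcctccgt
ATF5: ggagagtgctgTGACTCAtgctggactcta
ATF4: agagacgaagtcTATAAAgggccggcgggc
CEBPB: acgggccgccctTATAAAtaaccgggctca
FOS: taaaacgcttgtTATAAAagcagtggctgc

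The core TGATGNAA, which ATF4 and C/EBP dimers are known to read, was found before 1 start of ATF3, 191 bases upstream, and before 1 start of CEBPG, 42 bases upstream. Of all 35116 RefSeq windows, 3.62% held it. TGANTCA, the AP-1 element, was found 241 bases before 1 start of DDIT3 (238 before the other) and 188 bases before 1 start of ATF5, and 7.71% of windows held it. TATAAA was found before starts of ATF4, CEBPB and FOS at 30, 29 and 33 bases, the usual distance of a TATA box. It was also found 230 bases before the second start of ATF3, and 11.5% of windows held it. Counted by gene, with a match in any window, the shares of 27305 genes were 4.46% for TGATGNAA, 9.37% for TGANTCA and 14.0% for TATAAA. TGACGTCA (1.85% of windows), the ER stress response element (0.0769%) and the serum response element (1.29%) had no exact match in any member's window. Only exact matches to the consensus letters were counted, so variants that differ by a base were not looked for. The window of JUN held none of the 6 elements, which says only that these letters are not in that window. A match is a description of the sequence and not evidence of binding in these cells.

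ATF4, the factor that eIF2alpha kinases act through, was the most abundant member, and it was higher in PERK-KO. The gene lies at chr22:39916569-39918691 on the plus strand. Its level was 342 FPKM (326 to 358) in WT and 506 FPKM (483 to 528) in PERK-KO, so the PERK-KO value lay above the WT limits. The ratio was 1.48-fold (interval 1.39 to 1.58), just short of the 1.5-fold limit, so ATF4 was not called, and the ratio was higher than for 89.5% of the 14594 genes past the filter. Processed copies of ATF4 exist elsewhere in the genome, and how fragments shared between copies were divided is not given in the sources used here. Its half-width of 4.63% of the WT level was wider than that of JUN (3.03%), a gene with a lower level.

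ATF3, a stress-induced factor that ATF4 is known to activate, was one of the 2 members called higher. It lies at chr1:212738676-212794119 on the plus strand, with 3 start sites in the tables summed to 1 gene value. The levels were 37.2 FPKM (35.0 to 39.4) in WT and 57.7 FPKM (54.6 to 60.8) in PERK-KO, which do not overlap, and the ratio was 1.55-fold (interval 1.43 to 1.68). Of all genes past the filter, 91.9% had a lower ratio.

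DDIT3, which encodes CHOP, the pro-apoptotic factor of ER stress, had a smaller ratio than ATF4. The gene lies at chr12:57910371-57914300 on the minus strand and was present at 58.2 FPKM (53.7 to 62.8) in WT and 66.2 FPKM (61.1 to 71.4) in PERK-KO. These confidence intervals overlap, and the ratio of 1.14-fold (interval 1.02 to 1.27) was not called. The last 68 bases of its locus are shared with MARS, a tRNA synthetase gene at 49.1 FPKM in WT and 61.0 FPKM in PERK-KO, and whether counting used strand is not given in the sources used here. DDIT3 has the shortest canonical transcript of the 9 genes, at 903 bases. Genes of that length had a running median log2 ratio of -0.35, so its own log2 ratio of 0.19 became 0.54 once that median was subtracted.

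ATF5, an ATF4 relative that is also controlled by upstream reading frames and is tied to the mitochondrial stress response, showed no difference beyond counting error. It lies at chr19:50431959-50437193 on the plus strand, where 1030 bases of its locus are shared with NUP62, a nuclear pore gene at 59.5 FPKM in WT and 64.9 FPKM in PERK-KO. The ATF5 levels were 36.4 FPKM (34.0 to 38.8) in WT and 38.9 FPKM (36.2 to 41.5) in PERK-KO, which overlap. The ratio was 1.07-fold (interval 0.972 to 1.18), so the data leave room for a difference of up to 1.18-fold from counting error alone.

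**Figure D1:**
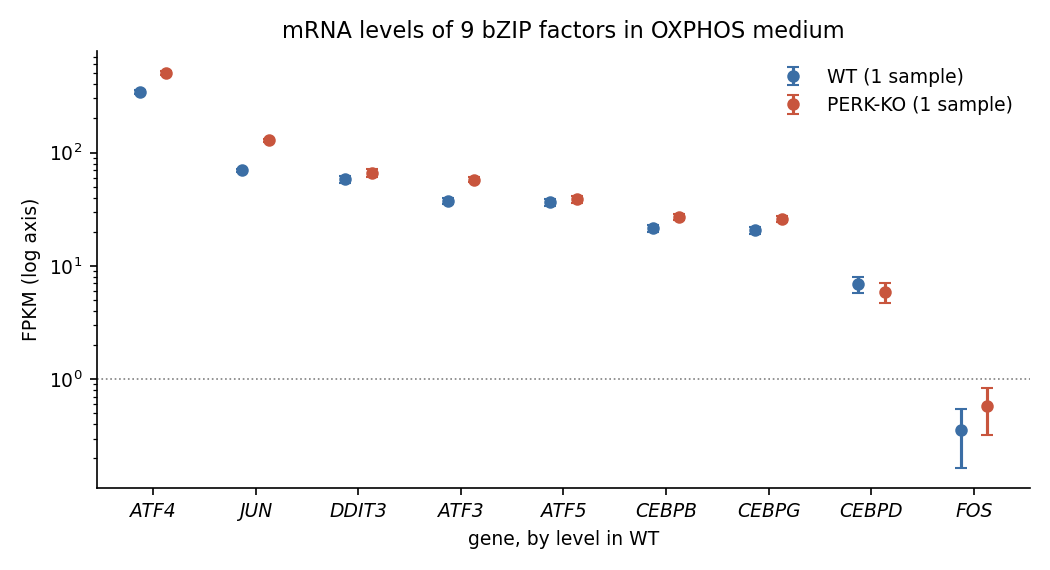
FPKM of each of the 9 bZIP genes (log axis), with 1 point per sample and bars from the lower to the upper Cufflinks confidence limit, and a dotted line at the filter of 1 FPKM. The PERK-KO points of ATF4, JUN, ATF3, CEBPB and CEBPG lie above the WT limits, those of DDIT3, ATF5, CEBPD and FOS have overlapping intervals, and FOS is under the filter in both samples.

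The C/EBP partners were higher by about the same factor in 2 of 3 cases. CEBPB, the C/EBP factor of acute phase and adipogenic responses, has a single exon at chr20:48807120-48809227 and stood at 21.5 FPKM (20.0 to 23.0) in WT and 27.1 FPKM (25.3 to 28.9) in PERK-KO. The ratio was 1.26-fold (interval 1.15 to 1.39). CEBPG, which has no activation domain of its own and is a known partner of ATF4, lies at chr19:33864575-33873592. It stood at 20.7 FPKM (19.3 to 22.0) in WT and 25.9 FPKM (24.2 to 27.5) in PERK-KO, a ratio of 1.25-fold (interval 1.14 to 1.37). For both genes the intervals of the 2 samples lay apart, and neither passed 1.5-fold. CEBPB had a higher ratio than 77.3% of genes past the filter, and CEBPG than 76.2%. The likeness of the 2 ratios held less with the length median subtracted, where the log2 ratios were 0.44 for CEBPB and 0.24 for CEBPG.

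CEBPD, an inflammatory and adipogenic C/EBP factor with a single exon at chr8:48649476-48650726, was the member with the lowest ratio. Its levels were 6.87 FPKM (5.73 to 8.01) in WT and 5.88 FPKM (4.75 to 7.002) in PERK-KO, and these overlap. They rest on 145 and 109 fragments, and the ratio was 0.855-fold (interval 0.664 to 1.10). The direction is not settled by these values, since the log2 ratio of -0.23 became 0.02 after the running median over transcript length was subtracted.

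JUN, the AP-1 subunit that can act as a homodimer, had the largest ratio of the 8 members past the filter. It is a single-exon gene at chr1:59246463-59249785 on the minus strand. Its levels were 69.8 FPKM (67.7 to 71.9) in WT and 128 FPKM (125 to 131) in PERK-KO, far outside each other's limits, and the ratio was 1.83-fold (interval 1.76 to 1.90), above that of 96.2% of genes past the filter. FOS, its usual partner, lies at chr14:75745481-75748937 and was close to the detection floor. FOS stood at 0.354 FPKM (0.165 to 0.544) in WT and 0.578 FPKM (0.320 to 0.837) in PERK-KO, which were 14 fragments (exact Poisson 95% interval 7.65 to 23.5) and 20 fragments (12.2 to 30.9). With 3 fragments as the floor, the lowest level that could be told from 0 was 0.0760 FPKM in WT and 0.0867 FPKM in PERK-KO. No difference in FOS was detectable at this depth, with a ratio of 1.63-fold (interval 0.812 to 3.27).

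In all, 8 of the 9 members passed the filter of 1 FPKM. Of these 8, 2 (JUN and ATF3) were called higher in PERK-KO and 0 were called lower. Over all 14594 genes past the filter, 1153 (7.90%) were called higher and 786 (5.39%) lower. With the intervals alone and no fold limit, 5 of 8 members were higher and 0 lower, against 26.1% and 18.7% of all genes. The median log2 ratio of the 8 members was 0.33, and that of all genes past the filter was 0.04. These counts describe 1 pair of samples and 9 genes chosen by name with earlier results of these data known. Their contrast with all genes is thus a description only. In bulk RNA, more cells expressing a gene and more mRNA per cell cannot be told apart.

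**Figure D2:**
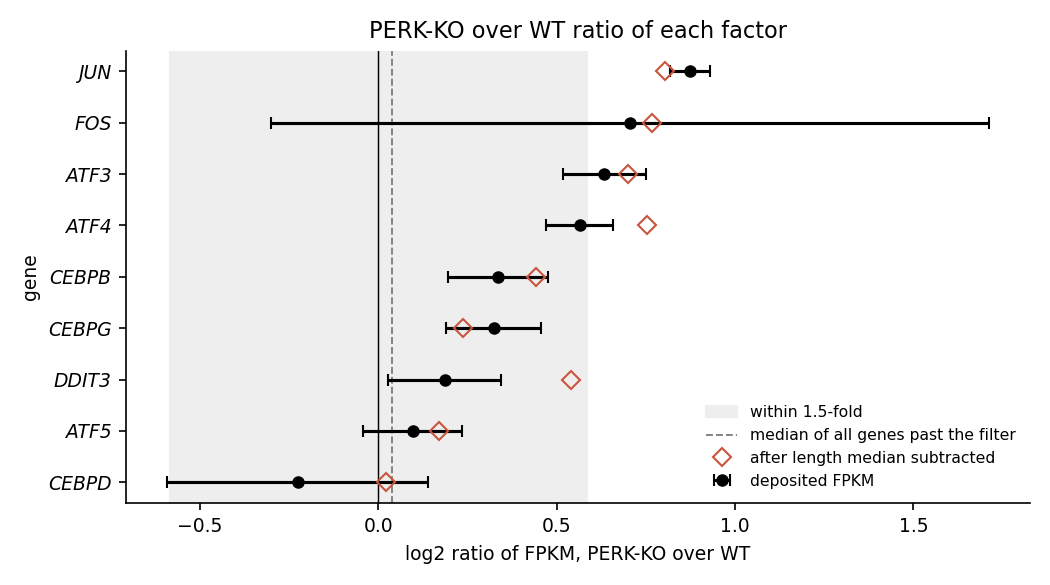
log2 ratio of FPKM, PERK-KO over WT, for each of the 9 genes (points) with the interval from counting error (bars), and the value after the running median of genes of like transcript length was subtracted (open diamonds). Grey marks ratios within 1.5-fold and the dashed line the median of all genes past the filter (0.04). JUN and ATF3 lie beyond 1.5-fold, and ATF4 (0.75) does so only after the length median is subtracted, while DDIT3 moves to 0.54.

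Transcript length moved with the ratios across all genes, and its part in the values of single members was not tested beyond this subtraction. The running median of neighbouring genes was -0.19 at the length of ATF4, -0.11 at that of CEBPB, -0.25 at that of CEBPD, 0.09 at that of CEBPG and 0.07 at that of JUN. With it subtracted, ATF4 (log2 ratio 0.75) was called together with JUN (0.80) and ATF3 (0.70). CEBPB stood at 0.44, CEBPG at 0.24 and ATF5 at 0.17 on that scale. The median of the 9 members moved from 0.34 to 0.54.

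The order of levels was the same in both samples, namely ATF4, JUN, DDIT3, ATF3, ATF5, CEBPB, CEBPG, CEBPD and FOS, as FPKM is scaled for transcript length. ATF4 was 4.90 times the level of JUN in WT and 3.95 times in PERK-KO, so the distance between the 2 most abundant factors was smaller in PERK-KO. In WT the neighbours ATF3 and ATF5 had overlapping intervals, as did CEBPB and CEBPG. In PERK-KO only CEBPB and CEBPG overlapped, and ATF3 was 1.48 times ATF5. ATF4 exceeded 98.8% of all rows in WT and 99.3% in PERK-KO.

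Ratios between partner or related factors were taken within each sample, which removes the scale of the library. The mRNA ratio of DDIT3 to ATF4 was 0.170 in WT and 0.131 in PERK-KO, a log2 difference of -0.38 (interval -0.56 to -0.19). The ratio of ATF5 to ATF4 was 0.106 in WT and 0.0769 in PERK-KO, a log2 difference of -0.47 (interval -0.63 to -0.30). CHOP and ATF5 transcripts were thus scarcer relative to ATF4 in PERK-KO by more than counting error. The ratio of ATF4 to CEBPG was 16.6 in WT and 19.6 in PERK-KO, with a log2 difference of 0.24 (interval 0.08 to 0.40), and that of ATF4 to CEBPB was 15.9 in WT and 18.6 in PERK-KO, with 0.23 (interval 0.06 to 0.40). ATF4 thus stood higher relative to both C/EBP partners in PERK-KO.

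For CHOP and its C/EBP partners the direction depended on the treatment of transcript length. The ratio of DDIT3 to CEBPB was 2.71 in WT and 2.44 in PERK-KO, a log2 difference of -0.15 (interval -0.36 to 0.06), and that of DDIT3 to CEBPG was 2.82 in WT and 2.56 in PERK-KO, with -0.14 (interval -0.35 to 0.07). Both intervals include 0, and after subtraction of the length median the log2 differences were 0.10 and 0.30. In the same setting the ratio of DDIT3 to ATF4 differed by -0.21, that of ATF5 to ATF4 by -0.58, and that of ATF4 to CEBPG by 0.51. Within AP-1, FOS to JUN was 0.00508 in WT and 0.00452 in PERK-KO, and the log2 difference of -0.17 (interval -1.17 to 0.84) includes 0. ATF3 to JUN was 0.532 in WT and 0.451 in PERK-KO, a log2 difference of -0.24 (interval -0.37 to -0.11) that became -0.10 with length subtracted.

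**Figure D3:**
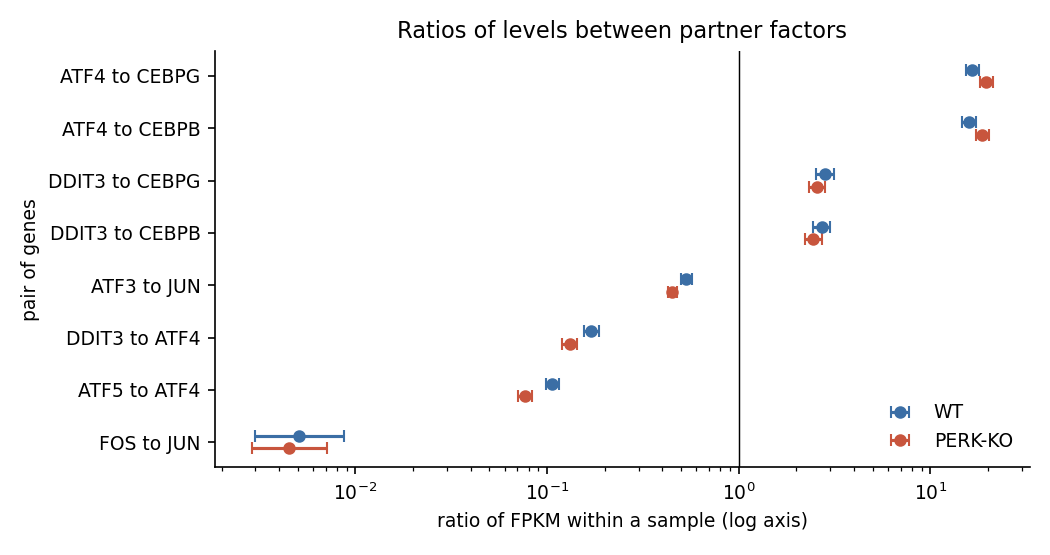
Ratio of FPKM between 2 genes within a sample (log axis) for WT and PERK-KO, with bars for counting error on the log scale. DDIT3 to ATF4 (0.170 and 0.131), ATF5 to ATF4 (0.106 and 0.0769) and ATF3 to JUN (0.532 and 0.451) are lower in PERK-KO with bars apart, and FOS to JUN, near 0.005, has overlapping bars.

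The members were also set against the sum of their own families, with shares given as values without intervals. In the JUN family, JUND, the subunit that most cells express constitutively, was 338 FPKM in WT and 308 FPKM in PERK-KO. JUNB, which often opposes JUN, was 16.0 FPKM in WT and 10.4 FPKM in PERK-KO and was called lower. JUNB was not called with 1 FPKM added to each level or with the length median subtracted. JUN made up 16.5% of the summed FPKM of the family in WT and 28.7% in PERK-KO, while the sum itself was 424 FPKM (417 to 431) and 446 FPKM (439 to 454). JUN thus took a larger share of a family sum that differed by 1.05-fold.

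The C/EBP sum covered CEBPA, CEBPB, CEBPD, CEBPE and CEBPG. DDIT3, at 58.2 FPKM in WT and 66.2 FPKM in PERK-KO, was left out of it. In this family, CEBPA, the differentiation factor of liver and fat, was 22.5 FPKM in WT and 21.4 FPKM in PERK-KO with overlapping intervals. CEBPE was listed at 0 in both. CEBPB and CEBPG together with CEBPA were of like abundance, at 30.02%, 28.9% and 31.5% of the sum in WT and 33.8%, 32.2% and 26.7% in PERK-KO. The family sum was 71.5 FPKM (68.8 to 74.2) and 80.3 FPKM (77.2 to 83.3). In the FOS family, FOS itself was 2.94% of the sum in WT and 4.19% in PERK-KO, which rest on its 14 and 20 fragments. FOSL2, a FOS-related antigen that also pairs with JUN proteins, was 5.53 FPKM in WT and 8.09 FPKM in PERK-KO, and FOSL1 was 5.41 FPKM in WT and 4.51 FPKM in PERK-KO. The sum was 12.1 FPKM (11.0 to 13.1) and 13.8 FPKM (12.7 to 14.9), far under that of the JUN family in both samples.

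**Figure D4:**
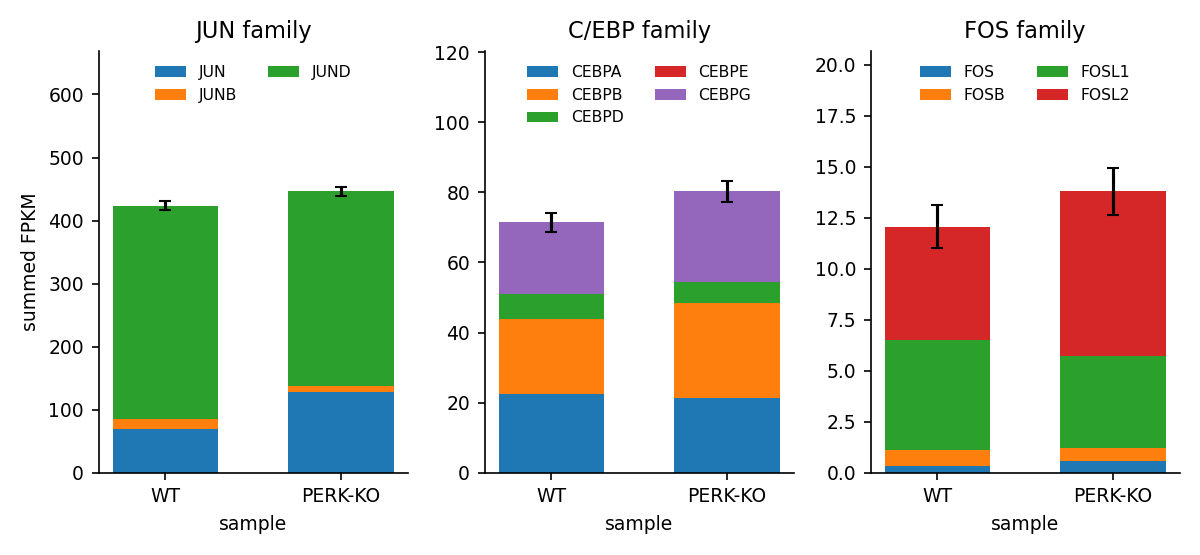
Summed FPKM of the JUN, C/EBP (without DDIT3) and FOS families in WT and PERK-KO. Bars are stacked by gene, with error bars for the counting error of the sum. JUN takes 16.5% of its family in WT and 28.7% in PERK-KO while the sums are 424 and 446 FPKM.

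The other bZIP genes were measured for comparison, with 36 of 45 past the filter. Of these, 2 were called higher (5.56%) and 1 lower (2.78%), against 7.90% and 5.39% of all genes, and their median log2 ratio was 0.13. The 2 were XBP1, the factor made active by IRE1 splicing in the ER stress response, at 97.6 FPKM in WT and 187 FPKM in PERK-KO, and CREB3L2, an ER-anchored relative of ATF6, at 7.31 FPKM in WT and 15.2 FPKM in PERK-KO. Gene-level FPKM does not separate the spliced from the unspliced XBP1 mRNA. The 1 called lower was JUNB, and NFE2L1, a bZIP factor of the ER membrane, was 46.4 FPKM in WT and 52.8 FPKM in PERK-KO and not called.

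Many known targets of ATF4 stood higher in PERK-KO, in a list chosen with earlier results of these data known. ATF4 itself was higher by intervals alone but was not called. Of 39 such genes 38 passed the filter, 21 were called higher (55.3%, with 7.90% over all genes) and 2 lower (5.26%, with 5.39% over all genes), and their median log2 ratio was 0.65. The highest ratios were those of ALDH1L2, a mitochondrial folate enzyme (1.27 FPKM in WT and 6.14 FPKM in PERK-KO, log2 ratio 2.27), and SLC7A11, the cystine transporter (2.35 FPKM in WT and 7.86 FPKM in PERK-KO, 1.74). STC2, a secreted glycoprotein, was 3.72 FPKM in WT and 12.2 FPKM in PERK-KO (1.71), and CTH, an enzyme of cysteine synthesis, was 3.17 FPKM in WT and 8.84 FPKM in PERK-KO (1.48). Lower in PERK-KO were NUPR1, a stress-induced chromatin protein, at 9.03 FPKM in WT and 4.57 FPKM in PERK-KO, and GDF15, a secreted stress cytokine, at 5.06 FPKM in WT and 3.06 FPKM in PERK-KO. The list thus held genes on both sides of WT.

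The smallest ratios among the targets called higher were those of PHGDH, the first enzyme of serine synthesis (97.7 FPKM in WT and 152 FPKM in PERK-KO), and SLC3A2, the heavy chain of amino acid exchangers (179 FPKM in WT and 274 FPKM in PERK-KO). Abundant targets that were not called included EIF4EBP1, the translation repressor (170.3 FPKM in WT and 206 FPKM in PERK-KO), SARS, the seryl-tRNA synthetase (95.4 FPKM in WT and 123 FPKM in PERK-KO), and SHMT2, a mitochondrial serine enzyme (110.0 FPKM in WT and 122 FPKM in PERK-KO). By intervals alone 31 of the 38 targets were higher and 2 lower in PERK-KO, against 26.1% and 18.7% of all genes. ATF4 mRNA was also higher by that rule, and whether ATF4 protein differed was not measured here.

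Of 7 genes known as CHOP targets, 3 were called higher (42.9%, with 7.90% over all genes) and 0 lower, with a median log2 ratio of 0.37. They were PPP1R15A (GADD34), which directs dephosphorylation of eIF2alpha, at 55.8 FPKM in WT and 85.7 FPKM in PERK-KO, ERO1L, an ER oxidase, at 12.96 FPKM in WT and 22.3 FPKM in PERK-KO, and CHAC1, a glutathione-degrading enzyme, at 3.44 FPKM in WT and 7.26 FPKM in PERK-KO. CHAC1 and TRIB3 are also in the ATF4 list, so the 2 lists are not separate. BBC3, a pro-apoptotic BCL2 relative, was 55.0 FPKM in WT and 45.8 FPKM in PERK-KO and not called. These 3 targets had log2 ratios of 0.62, 0.78 and 1.08. The uncalled targets TNFRSF10B, TRIB3, BCL2L11 and BBC3 had 0.18, 0.33, 0.37 and -0.27. DDIT3 itself had 0.19, which became 0.54 with the length median subtracted, while the target values are given without that subtraction.

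Immediate early genes other than JUN and FOS stood on both sides of WT, with more of them lower than higher in PERK-KO. Of 26 such genes 20 passed the filter, 1 was called higher and 2 lower, with 7.90% and 5.39% over all genes, and the median log2 ratio was -0.26. By intervals alone 2 were higher and 7 lower, against 26.1% and 18.7% of all genes. MYC, the growth regulator, was 14.1 FPKM in WT and 34.5 FPKM in PERK-KO, while IER3, a survival gene of the early response, was 31.4 FPKM in WT and 18.5 FPKM in PERK-KO and JUNB was lower as given above. IER5, the most abundant early gene, was 93.1 FPKM in WT and 75.1 FPKM in PERK-KO and not called.

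Upstream of ATF4, the eIF2alpha kinases and regulators numbered 17, of which 2 were called higher (11.8%, with 7.90% over all genes) and 0 lower (5.39% over all genes), with a median log2 ratio of -0.03. By intervals alone 4 were higher and 6 lower, against 26.1% and 18.7% of all genes. After subtraction of the length median, 1 was called higher and 1 lower. The 2 called higher without that subtraction were PPP1R15A and PPP1R15B, the inducible and the constitutive partner of the eIF2alpha phosphatase. PPP1R15B was 8.68 FPKM in WT and 14.2 FPKM in PERK-KO, and PPP1R15A was as given above. PPP1CA, the catalytic subunit that both can recruit, was 275 FPKM in WT and 215 FPKM in PERK-KO and not called. The eIF2 subunits EIF2S3 and EIF2S2 were 434 FPKM in WT and 352 FPKM in PERK-KO and 153 FPKM in WT and 111 FPKM in PERK-KO, and neither was called. EIF2AK3 was the lowest of the 17 by ratio.

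**Figure D5:**
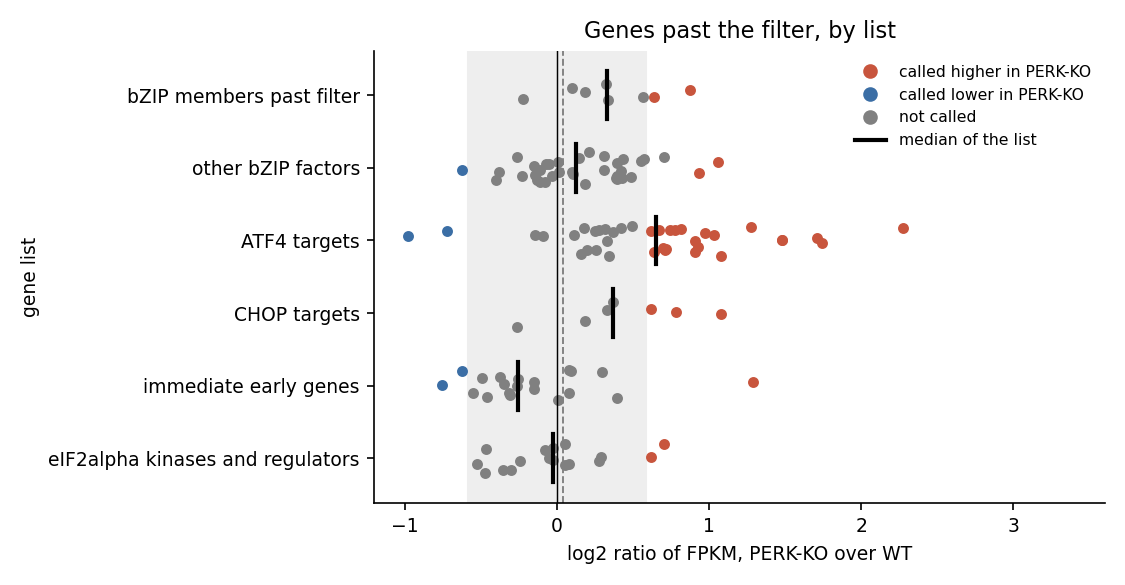
log2 ratio of FPKM, PERK-KO over WT, with 1 point per gene past the filter in each list, coloured by call, with black bars for list medians, grey for ratios within 1.5-fold and a dashed line for the median of all genes (0.04). The ATF4 targets have the highest median (0.65) with 21 of 38 called higher, the 8 of the 9 factors past the filter have a median of 0.33, and the immediate early genes have a median of -0.26. A gene in 2 lists is drawn in both.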

How the data were processed

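Poly(A) RNA from 1 WT and 1 PERK-KO HEK293 sample was sequenced. Per the labels' processing notes and the methods, the authors aligned reads to GRCh37/hg19 with TopHat2 2.0.13 and deposited FPKM per gene with confidence limits from Cufflinks 2.2.1. Read counts were not analysed here, and total depth is unknown beyond the relative depth given above. Cufflinks limits span 2 standard errors each way, and ratio intervals were derived from them on the log2 scale. Without replicates no test was run. A gene counted as called with FPKM of at least 1 in 1 sample, a ratio beyond 1.5-fold and intervals apart, without pseudocount. The calling step was run on simulated data with counting noise only, genes well above the filter and changes well beyond 1.5-fold. Such data cannot show how it treats variation between cultures, low levels or ratios near the limit. Canonical GENCODE 44 transcripts gave lengths for 92.6% of the 14594 genes past the filter. Named genes were all members, EIF2AK3, members of the family sums, every called gene of a list (the 4 highest and 4 lowest log2 ratios where more than 8 were called) and up to 3 uncalled ones reaching 50 FPKM. The members and lists were chosen with earlier results of these data known. Start positions in the tables count from 0, and 1 was added. FPKM gives each gene's fragments as a share of the library, so a few abundant genes can shift all values. Alternatives were other fold limits, filters, pseudocounts and scalings and the summing of rows of the same name. The scripts ran in Python 3.11.15 on pandas 2.3.3 and numpy 2.4.6, with scipy 1.17.1 for Poisson intervals and matplotlib 3.10.9 for plots.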

Additional observations from a re-analysis of the deposited data

How the results depend on the processing

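No paired analysis was possible because each genotype had 1 sample, and for the same reason no replicate could be left out. Of 107 alternative values for counts and medians, 86 stayed within 1.5 times the reported count or within the counting error of the median. For this tally the counts of lists pooled higher and lower calls, and members called lower were 0 in every setting. It is therefore no measure of how stable single calls are. With a fold limit of 2, the members called higher were 0 of 8, and all genes 317 higher and 158 lower of 14594. The lists gave ATF4 targets 8 of 38, CHOP targets 1 of 7, other bZIP factors 1 of 36 and immediate early genes 1 of 20, all higher. None of the eIF2alpha regulators was called. With intervals apart at any fold, the members called higher were 5 (ATF3, ATF4, CEBPB, CEBPG and JUN). All genes gave 3810 higher and 2722 lower of 14594. The list counts in this setting pool both directions. CHOP targets were 7 of 7 (6 higher and 1 lower) and other bZIP factors 16 of 36 (12 higher and 4 lower). Immediate early genes were 9 of 20 (2 higher and 7 lower) and eIF2alpha regulators 10 of 17 (4 higher and 6 lower). Genes called higher numbered 709 with a filter of 5 FPKM, 750 with a pseudocount of 1 and 684 after subtraction of the length median, which also moved the median log2 ratio of the 9 members to 0.54. Centring the median log2 ratio at 0 left 1 eIF2alpha regulator called, higher in PERK-KO. Without the filter 5 other bZIP factors were called, 4 higher and 1 lower. The causes were not tested. Among the eIF2alpha regulators, subtraction of the length median gave 1 higher and 1 lower in place of 2 and 0. Among other bZIP factors it gave 3 higher and 0 lower in place of 2 and 1. JUN and ATF3, the members called, kept their sign. Across the scalings, filters and pseudocounts the log2 ratio ranged from 0.53 to 0.75 for ATF4, 0.60 to 0.70 for ATF3, 0.80 to 0.87 for JUN, 0.15 to 0.54 for DDIT3, -0.26 to 0.02 for CEBPD and 0.22 to 0.77 for FOS. With a pseudocount of 1 the log2 difference of FOS to JUN was -0.64. The subtraction of the length median from the ratios between partners was chosen after seeing the data. Depth limits FOS and CEBPD most, with half-widths of 53.5% and 16.6% of the WT level.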
